A study of Mus musculus with 2 samples.

Results

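The enzymes and carriers of the urea cycle were described in whole liver of mouse embryos, as 10 genes taken by symbol out of 43346 annotated genes: Nags, Cps1, Otc, Ass1, Asl, Arg1, Arg2, Slc25a15, Slc25a13 and Glul. All 10 had a row in the gene and transcript tables of both libraries. The only group was liver of strain B6NCrl at embryonic age 13.5 day, from healthy embryos of both sexes pooled, with no treatment or genetic change in the labels. Its 2 biological replicates were separate tissue samples with 1 shared donor entry, so an SD over n = 2 measures the spread between these samples only, which may be technical. With 1 group there was no condition to test, and levels were compared between genes within each library.

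The urea cycle turns ammonia, which is toxic, into urea, and in the adult it runs in full in hepatocytes around the portal vein. Its first steps lie in mitochondria: Nags makes N-acetylglutamate, the obligate activator of Cps1, Cps1 joins ammonia and bicarbonate into carbamoyl phosphate, and Otc transfers that group to ornithine to give citrulline. In the cytosol Ass1 joins citrulline to aspartate, Asl releases arginine and fumarate, and Arg1 splits arginine into urea and ornithine. Slc25a15 exchanges ornithine and citrulline across the inner mitochondrial membrane, and Slc25a13 (citrin) exports aspartate. Arg2 is the mitochondrial arginase, known mainly from tissues other than liver, and Glul, glutamine synthetase, takes up ammonia in the adult cells around the central vein.

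Replicate 1 held 39644066 expected counts and replicate 2 held 38150988, where an expected count is the estimated number of reads of a gene. Of the labelled tissue, all 12 hepatoblast markers reached 1 TPM in both libraries (TPM is the transcript abundance corrected for transcript length and scaled to a fixed sum). All 10 erythroid and all 10 granulocyte markers did so too, as did 8 of 10 macrophage, 10 of 10 sinusoidal endothelial, 9 of 10 mesenchymal, 7 of 10 skeletal muscle, 5 of 10 neuronal and astroglial, 5 of 10 intestinal epithelial and 0 of 10 kidney tubule markers. Of all protein-coding genes, 52.1% reached 1 TPM in both libraries, so a count near 5 of 10 does not show that a cell type was present. The erythroid list summed to 338141 and 301591 TPM, with the globin gene Hba-a2 highest at 140066 and 125759 TPM. The hepatoblast list summed to 17083 and 19011 TPM. Since TPM has a fixed sum, the TPM of every other gene depends on what the globin genes take up. The muscle list summed to 68.0 and 54.3 TPM, with Mylpf highest at 36.6 and 31.9 TPM. The neuronal and astroglial list summed to 18.5 and 15.9 TPM. The intestinal list summed to 45.8 and 52.7 TPM, with Krt20 highest at 25.2 and 30.4 TPM and the defining factors Cdx1 and Cdx2 at or below 0.05 TPM. The part of such other cells in the levels of the members was not tested. In such bulk samples, fewer cells of a type and less RNA per cell cannot be told apart.

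The sequences that follow show 2 promoter windows that differ in base composition and the alternative coding ends of Otc. RefSeq promoter windows on GRCm38.p6, the assembly that mm10 names, matched 6 of the 10 members, in 7 windows. The 250 bases before the RefSeq start site are printed 5′ to 3′ for Otc (chrX:10252055-10252304, plus strand), whose window stood apart in base composition. They are also printed for Glul (chr1:153899679-153899928, plus strand), where they precede the first exon of Glul-201, its only transcript with a complete coding sequence. The first exons of the shorter Glul models lie downstream and outside the window. Capitals mark exact matches, on either strand, to the TATA box core TATAA, the CCAAT box, the GC box GGGCGG, the C/EBP core TTGCNNAA or the HNF4 core CAAAGNNCA, and no match overlapped another in these windows.
Otc: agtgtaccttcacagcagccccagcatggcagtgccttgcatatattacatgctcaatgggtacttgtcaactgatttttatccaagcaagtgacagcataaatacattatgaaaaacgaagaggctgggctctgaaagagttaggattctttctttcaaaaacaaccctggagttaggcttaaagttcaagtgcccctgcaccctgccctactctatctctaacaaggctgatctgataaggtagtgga
Glul: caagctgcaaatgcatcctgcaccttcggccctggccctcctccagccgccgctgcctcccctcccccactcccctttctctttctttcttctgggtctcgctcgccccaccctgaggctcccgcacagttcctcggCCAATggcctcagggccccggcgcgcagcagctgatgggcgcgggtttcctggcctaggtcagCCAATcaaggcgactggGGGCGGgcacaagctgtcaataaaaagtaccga

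The Otc window held 1 CpG and 43.6% G and C, and 7.87% of 32817 promoter windows of the same length held fewer CpGs. The Ass1 window held 23 CpGs at 75.6% G and C, and the Glul window 15 at 64.8%. Slc25a13 and Nags held 11 CpGs each, and the 2 windows of Slc25a15 held 11 and 43, against a median of 6 over all windows. Of the 6 matched members only Otc had a window below that median. None of the 5 motifs was found in the Otc window, which says only that these letters are not there. The Glul window held CCAAT at 2 places and GGGCGG at 1, and the Ass1 window held GGGCGG at 1. The RefSeq start of Ass1 lies inside the GENCODE transcript, so that the last 63 bases of its window, that match included, are transcribed in Ass1-201. The Slc25a15 window with 43 CpGs lies wholly inside the gene, downstream of the GENCODE start of Slc25a15-201. CCAAT was present in 33.8% of all windows, GGGCGG in 32.7%, TATAA in 22.8%, TTGCNNAA in 9.57% and CAAAGNNCA in 5.49%. TTGCNNAA and CAAAGNNCA were in none of the 7 member windows.

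Otc has 2 annotated transcripts that share their first 9 coding exons and differ in the last one, so that the ends of their coding sequences differ. The join is printed below 5′ to 3′ from the GENCODE release M21 transcripts, with the last 12 bases of the shared exon (chrX:10312393-10312530) in lower case and the first 24 coding bases of each last exon in capitals (chrX:10319843-10321024 for Otc-201 and chrX:10314943-10316864 for Otc-202).
Otc-201: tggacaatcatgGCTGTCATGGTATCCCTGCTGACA
Otc-202: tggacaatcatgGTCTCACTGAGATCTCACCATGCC

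Most of the cycle was transcribed at clear levels, with a gap at its first committed enzyme. Of the 10 members, 8 reached 1 TPM in both libraries, where 28.1% of all annotated genes and 52.1% of protein-coding genes did. The 2 below were Cps1 and Arg2. The members had been chosen with earlier results of these data known. The median over the members was 22.8 TPM in replicate 1 and 28.4 TPM in replicate 2, against 1.37 and 1.51 TPM over protein-coding genes. Members that reached the threshold spanned from 5.12 TPM for Arg1 to 101 TPM for Glul in replicate 1.

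**Figure D1:**
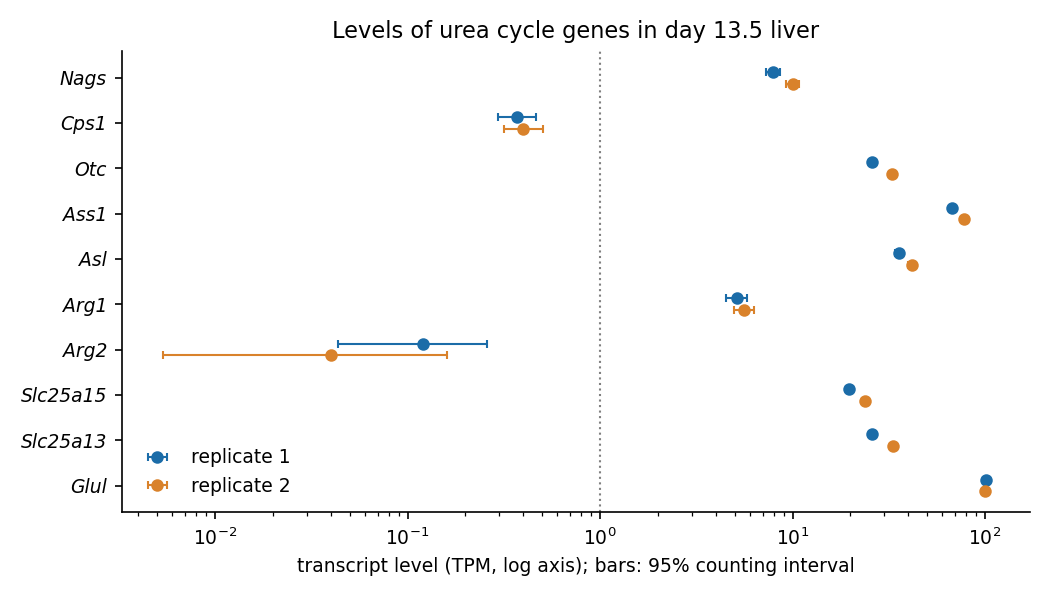
Transcript level in TPM (log axis) of the 10 members in each of the 2 libraries, as points with 95% counting intervals; the dotted line marks 1 TPM. Cps1 and Arg2 lie left of the line in both libraries, and the other 8 members lie at or above 5.12 TPM.

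Among the mitochondrial enzymes, Nags (chromosome 11, 102145513 to 102149477 of GRCm38) was at 7.89 TPM on 557 counts in replicate 1 and at 10.1 TPM on 657 counts in replicate 2. Cps1 (ENSMUSG00000025991.8, chromosome 1, 67123026 to 67231259), in adult liver a highly abundant mitochondrial protein, stood at 0.37 and 0.40 TPM on 77 and 75 counts. The exact 95% counting intervals of its level were 0.294 to 0.466 and 0.318 to 0.507 TPM, so that it was detected, above the 0.0145 and 0.0162 TPM that 3 counts would give for its length, and remained below 1 TPM. Of the protein-coding genes, 41.0% and 40.8% lay below it.

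Otc (chromosome X, 10252305 to 10321024), the next enzyme in the same compartment, was at 26.0 and 32.9 TPM on 2214 and 2511 counts, and 83.9% and 85.5% of protein-coding genes lay below it. Within a library its TPM was 70.3-fold that of Cps1 in replicate 1 and 82.3-fold in replicate 2. With 0.1 TPM added to both genes, as in the ratios below, the difference was 5.92 ± 0.18 on the log2 scale (SD, n = 2), and it was 4.45 with 1 TPM added, since the constant is then larger than the level of Cps1. The order of the mitochondrial enzymes, Otc above Nags above Cps1, was the same in both libraries and their ranges did not overlap.

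The cytosolic enzymes descended along the pathway. Ass1 (chromosome 2, 31470207 to 31520672) stood at 67.6 and 77.8 TPM, Asl (chromosome 5, 130011258 to 130029247) at 35.7 and 41.6 TPM, and Arg1 (chromosome 10, 24915221 to 24927484) at 5.12 and 5.59 TPM. Their ranges over the libraries did not overlap. The TPM of Ass1 was 1.89-fold that of Asl in replicate 1 and 1.87-fold in replicate 2, or 0.91 ± 0.01 on the log2(TPM + 0.1) scale (SD, n = 2). Arg1 rested on 267 and 262 counts, with counting intervals of 4.52 to 5.77 and 4.94 to 6.31 TPM. Ass1 exceeded Cps1 by 7.23 ± 0.08 on the same log2 scale, and Glul by 7.70 ± 0.07. The order of these differences rested on length correction: from expected counts they were 5.76 for both.

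Arg2 (chromosome 12, 79130777 to 79156301), the mitochondrial arginase, was the lowest member: it had 0.12 TPM on 6.03 counts in replicate 1 and 0.04 TPM on 2.01 counts in replicate 2. Its count intervals, 0.0437 to 0.259 and 0.00536 to 0.16 TPM, overlapped. The length-corrected level of Arg2 was 2.33% of that of Arg1 in replicate 1 (exact binomial interval 0.847% to 5.14%) and 0.791% in replicate 2 (0.0953% to 2.89%). The last 285 nt of Arg2 overlap Vti1b on the opposite strand, which stood at 44.5 and 46.8 TPM. The sources used here do not say whether counting used strand. The part of Vti1b reads in the Arg2 count was not tested.

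Both carriers lay between Asl and Nags in level. Slc25a13 (chromosome 6, 6041218 to 6217173) stood at 25.8 and 33.3 TPM, and Slc25a15 (chromosome 8, 22375551 to 22398597) at 19.7 and 23.9 TPM. Slc25a13 and Otc were the only neighbours in the order of the 10 levels whose ranges overlapped, and the sign of their difference was opposite in the 2 libraries. Slc25a15 was below Otc by 0.43 ± 0.05 on the log2(TPM + 0.1) scale, although its longer transcript gave it more reads. Slc25a12 (aralar), the aspartate carrier of brain and muscle and the paralog of Slc25a13, stood at 24.9 and 28.3 TPM. The difference of Slc25a12 from Slc25a13, −0.14 ± 0.13 on the same scale, was about the size of the spread between libraries.

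**Figure D2:**
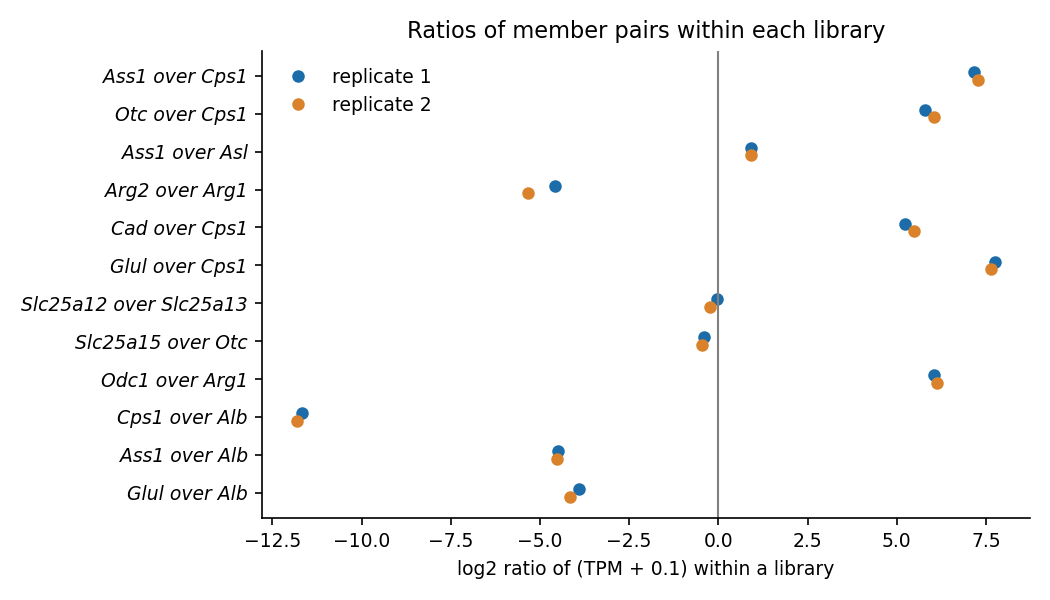
Log2 ratio of (TPM + 0.1) for 12 pairs of genes within each library, 1 point per replicate, with the vertical line at equal levels. The ratios to Cps1 range from 5.23 to 7.75, and those of Slc25a12 over Slc25a13 and Slc25a15 over Otc lie close to 0.

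Albumin (Alb), a secreted product of the hepatic lineage, stood at 1531 and 1789 TPM. Against it, the log2(TPM + 0.1) difference was −4.51 ± 0.02 for Ass1, −4.04 ± 0.17 for Glul and −11.74 ± 0.10 for Cps1 (SD, n = 2). The Ass1 difference was nearly the same in the libraries (−4.50 and −4.52), whereas that of Glul varied more (−3.92 and −4.15).

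Glul (chromosome 1, 153899944 to 153909723) had the highest gene-level TPM of the members, 101 in each library, on 4310 and 3999 counts. This position rested on short transcript models. Glul-202 (681 nt) and Glul-203 (379 nt) start from their own first exons, downstream of the first exon of Glul-201, and hold only the first part of the coding sequence. They took 61.2 and 66.2 TPM, and 11.8 and 4.63 TPM. Glul-201 (2792 nt), the only annotated Glul transcript with a complete coding sequence, stood at 27.7 and 28.7 TPM. Its share was 28.0% ± 0.819 of the TPM of the gene but 65.7% of its expected counts (SD, n = 2). Counted over the length of Glul-201, all Glul reads gave 43.0 ± 0.998 TPM. How reads common to several isoforms were divided was set by the authors' quantification and was not tested. The deposited posterior SD, the model's own error of a count, was 38.8 and 35.6 for Glul-203, on 125 and 44.1 counts.

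With transcripts that hold a complete coding sequence alone, Ass1 led at 72.6 ± 7.32 TPM. Slc25a13 (29.5 ± 5.27), Otc (29.5 ± 4.87), Glul (28.2 ± 0.707) and Asl (27.6 ± 0.537) then followed at TPM values whose differences were smaller than the SD of the first 2. By means over the libraries, the places of Slc25a15, Nags, Arg1, Cps1 and Arg2 were the same under both ways of counting. In replicate 1, however, Nags stood below Arg1 when counted this way (4.90 against 5.12 TPM).

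**Figure D3:**
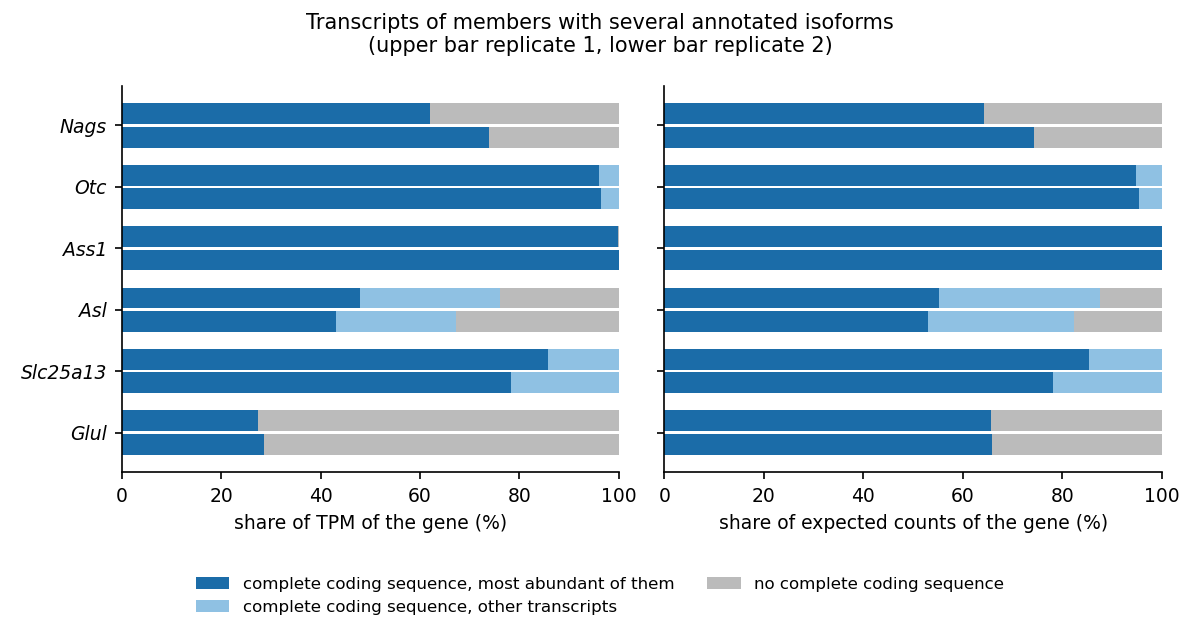
Share of each gene's TPM (left) and of its expected counts (right), in percent, held by the most abundant transcript with a complete coding sequence, by the other complete transcripts and by those without one; 6 members, with replicate 1 as the upper bar. Glul is the gene whose bars differ most between the panels, 28.0% against 65.7% for Glul-201.

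Of the other members with several annotated transcripts, Ass1 was nearly uniform, with 99.9% ± 0.136 of its TPM in Ass1-201 (SD, n = 2). Otc-201 held 96.2% ± 0.324 of the TPM of Otc, and Otc-202, with the other coding end printed above, held 4.08% and 3.62% on 117 counts in each library. Slc25a13-201 held 82.0% ± 5.15 and Slc25a13-203 the remainder, on 424 and 739 counts with posterior SDs of 169 and 217 counts. These 2 transcripts have the same annotated coding exons and differ at their outer ends, so both encode the same protein.

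Asl was the most divided member. Asl-205 held 48.0% and 43.2% of its TPM and Asl-202 held 28.2% and 24.0%. Both have the same annotated coding sequence and different 5′ exons. Asl-201, a shorter model of 792 nt that lacks the first part of the coding sequence, held 19.7% and 24.4%. Transcripts of Asl without a complete coding sequence together held 28.3% ± 6.32.

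Nags-201, the coding transcript of Nags, held 62.1% in replicate 1 and 73.9% in replicate 2. The rest belonged to Nags-202 and Nags-203, annotated as processed transcripts with no coding sequence, of which Nags-203 held 32.2% and 18.7%. Nags-201 therefore stood at 4.90 and 7.44 TPM. The count of Nags-203 was 155 and 103, with posterior SDs of 36.4 and 44.3 counts. The antisense gene Gm11586 overlaps Nags over 698 nt, on 10.8 and 5.65 counts. Cps1, Arg1, Arg2 and Slc25a15 each had 1 transcript in the annotation used by the authors.

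The substrates and products of the cycle are shared with several other pathways, and most related genes were above 1 TPM. Over the 9 related lists, 75 of 97 genes outside the members reached 1 TPM in both libraries. These lists had been picked for their roles, with earlier results of these data known. The part of that choice in the count was not tested. Of protein-coding genes 52.1% reached 1 TPM in both libraries, which is the share to set beside each list count below. Among paralogs of members, 2 of 5 did so, too few genes to compare with that share. Cad, whose cytosolic synthetase makes carbamoyl phosphate for pyrimidines from glutamine, stood at 17.6 and 22.1 TPM and thus exceeded Cps1 by 5.35 ± 0.17 on the log2(TPM + 0.1) scale. Slc25a29, a mitochondrial carrier of basic amino acids, was just below the threshold at 0.91 and 0.88 TPM. Lgsn, a relative of Glul, had no count in either library.

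**Figure D4:**
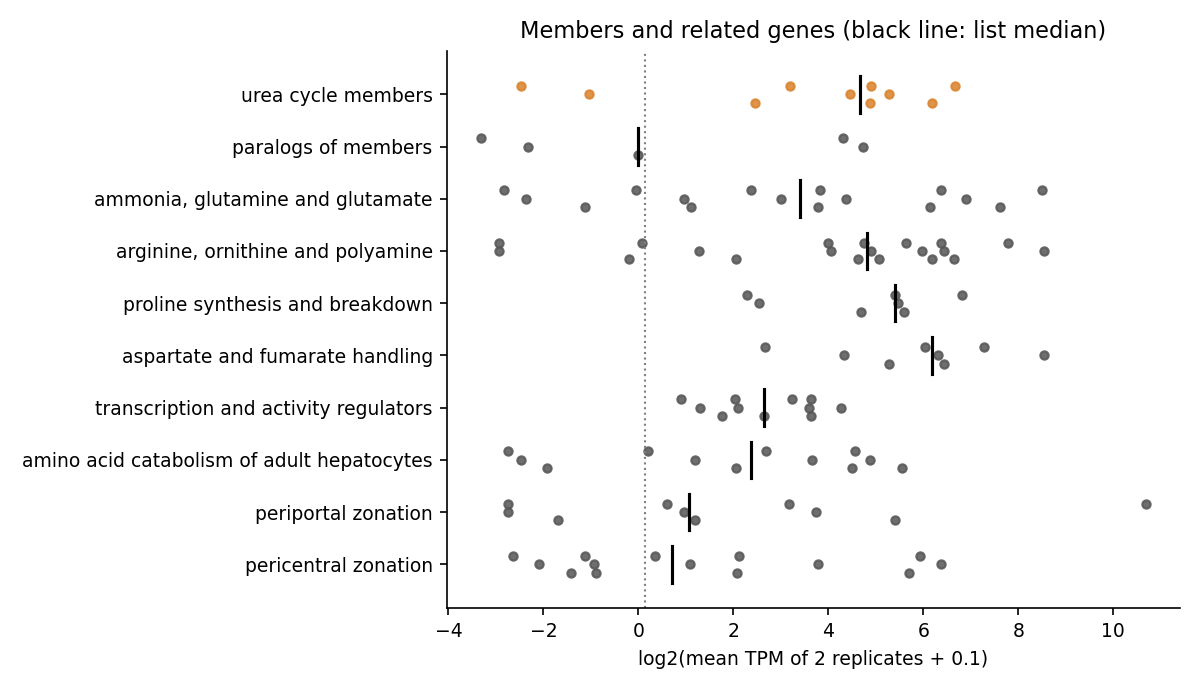
Log2(mean TPM of 2 replicates + 0.1) of every gene in the member list and in 9 related lists, 1 point per gene, with list medians as black lines and 1 TPM as the dotted line. All 8 genes of aspartate and fumarate handling lie right of the dotted line, and Cps1 and Arg2 are the members to its left.

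Of 16 genes of ammonia, glutamine and glutamate metabolism, 12 reached 1 TPM in both libraries, and the list's median was 10.4 ± 1.07 TPM. Asparagine synthetase (Asns), which consumes glutamine, was highest at 345 and 376 TPM, followed by the mitochondrial aspartate aminotransferase Got2 at 178 and 215 TPM. Glutamate dehydrogenase (Glud1), which releases or fixes ammonia in mitochondria, was at 118 and 120 TPM. Car5a, the mitochondrial carbonic anhydrase that supplies bicarbonate to Cps1, was below 1 TPM at 0.95 and 0.79 TPM. Car5a was named after its values were seen, as were Gatm and Nos3 below.

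Genes that use arginine and ornithine for other ends lay both above and below Arg1 in level. Of 20 genes in that list, 16 reached 1 TPM in both libraries, and the list's median was 28.2 ± 1.48 TPM. Ornithine decarboxylase (Odc1), the entry to polyamine synthesis, led at 344 and 397 TPM, and exceeded Arg1 by 6.08 ± 0.06 on the log2(TPM + 0.1) scale. Spermidine synthase (Srm) stood at 233 and 211 TPM and spermine oxidase (Smox) at 98.0 and 101 TPM. Ornithine aminotransferase (Oat), which links ornithine to glutamate and proline, stood at 77.3 and 89.0 TPM. Gatm, which takes the amidino group of arginine for creatine, stood at 22.0 and 27.0 TPM, and the endothelial nitric oxide synthase Nos3 at 2.41 and 2.23 TPM. All 7 genes of proline metabolism reached the threshold, among them Aldh4a1 at 45.1 and 51.3 TPM and Pycrl at 44.1 and 44.3 TPM.

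The supply of aspartate and the removal of fumarate were represented by 8 genes, all above 1 TPM in both libraries. Their median was 72.3 ± 0.325 TPM. The malate dehydrogenases led, Mdh2 at 374 TPM in each library and Mdh1 at 152 and 160 TPM, followed by adenylosuccinate lyase (Adsl) at 83.8 and 88.7 TPM. Fumarase (Fh1), which takes up the fumarate that Asl releases, stood at 77.9 and 80.1 TPM. It is likewise named after its values were seen.

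All 11 genes listed as regulators of the cycle reached 1 TPM in both libraries, at a median of 6.15 ± 0.672 TPM. The glucocorticoid receptor Nr3c1 was highest at 18.3 and 19.8 TPM. The hepatic nuclear receptor Hnf4a stood at 11.0 and 13.7 TPM and the mitochondrial deacetylase Sirt3 at 12.5 and 12.1 TPM, in opposite order in the libraries. Cebpa, a factor needed for full Cps1 transcription in liver, stood at 3.58 and 4.43 TPM, the glucagon receptor Gcgr at 9.03 and 9.56 TPM, and Sirt5, which activates Cps1 protein, at 3.69 and 4.61 TPM. These last 3 were named after their values were seen. Nr3c1, Hnf4a and Cebpa had higher TPM than Cps1 in both libraries, as did most protein-coding genes. Their part in the level of Cps1 was not tested.

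The libraries differed little in the members. After TMM scaling, 9 members with a mean count of at least 10 had a median absolute log2 ratio of 0.11 between replicates, against 0.15 for all 15970 such genes. None of the 9 was more than 1.5-fold apart, where 8.30% of all genes were. At that share, few or none of 9 genes would be. The 15970 genes also reach down to a mean count of 10, where counting error is larger. These values thus do not show that the members varied less than other genes. Slc25a13 was 1.16-fold higher in replicate 2 (95% counting interval 1.10 to 1.22), Nags 1.18-fold (1.05 to 1.32), Otc 1.13-fold (1.07 to 1.20) and Slc25a15 1.09-fold (1.03 to 1.15). The ratio of Glul was 0.928 (0.888 to 0.968), so it was lower in replicate 2. For Cps1, Ass1, Asl and Arg1 the interval included equal levels. These intervals cover counting error only, and with 1 library on each side no test of a difference between samples was possible.

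**Figure D5:**
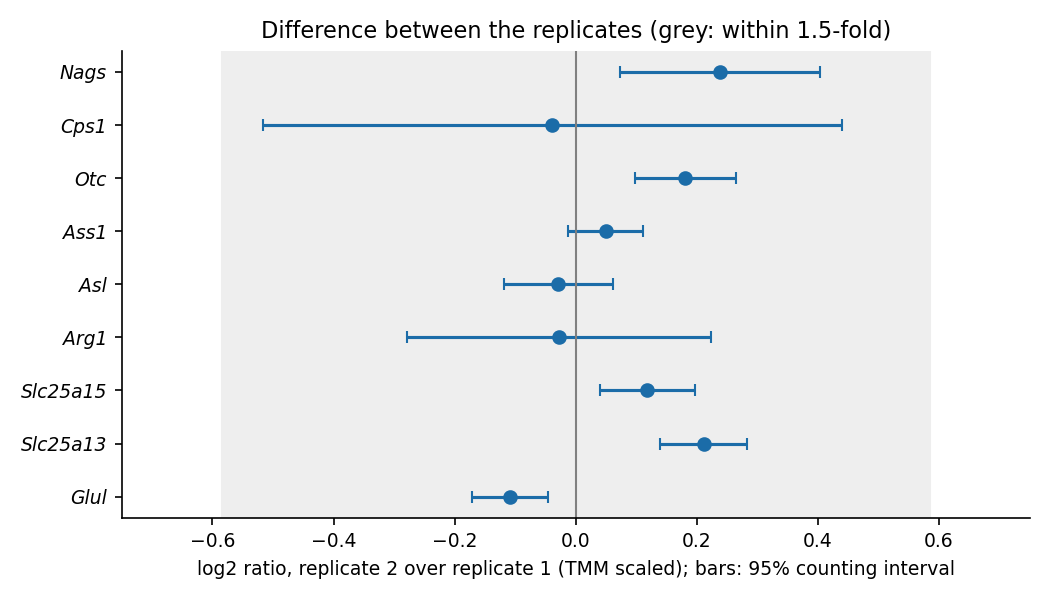
Log2 ratio of replicate 2 over replicate 1 after TMM scaling for the 9 members with a mean count of at least 10, with 95% counting intervals as bars and the range within 1.5-fold shaded. All 9 points lie in the shaded range, from −0.11 for Glul to 0.24 for Nags.

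The sign of such ratios depended on the scale. In deposited TPM the median gene stood 0.15 higher in replicate 2 on the log2 scale, and 8 of 10 members had a higher TPM there, all but Glul and Arg2. Scaled by the spike-in RNAs, which took 1.16% of counts in replicate 1 and 1.88% in replicate 2, the median gene lay at −0.64 and all 9 members were lower in replicate 2, 5 of them by more than 1.5-fold where 60.2% of all genes were more than 1.5-fold apart. Relative to the median gene, members kept the ratios given above under spike-in scaling, because that scaling shifts every gene alike.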

How the data were processed

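Total RNA of more than 200 nt, 10 ng per library, was sequenced from 2 liver samples, with spike-in RNAs added, per the labels. Per the deposited readme, each gene and transcript table describes 1 library quantified on mm10 with GENCODE M4. The aligner and the quantification tool were, like strand use, not given in the sources used here. The expected counts are estimates deposited by the authors, in which a model divides reads that fit several features. The authors' TPM sum runs over all entries of a table, spike-ins included. FPKM, also deposited, served as an alternative only. Posterior SDs came with the deposited counts.

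Symbols, coordinates and coding sequences came from GENCODE release M21, which named 42462 of 43346 genes. A coding sequence was complete with an annotated start and stop codon. Members and lists were chosen with earlier results of these data known. All members were named, with the 3 highest genes of each related list, genes of the 12 pairs, and list genes without a count; further names are marked in the text, and some genes of these lists are not reported here.

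Ratios between replicates used expected counts, rounded for TMM factors (edgeR 4.0.16) and size factors (DESeq2 1.42.0) in R 4.3.3, and exact 95% binomial intervals. The ratio step was tested on simulated counts of replicate 2 over replicate 1 for 16027 genes, where genes changed by 1 and 2 (log2) came out at medians of 0.99 and 2.01. The simulated libraries shared 1 composition apart from those changes and held counting error only. The simulation thus checks the computation and not the choice of scale. Level intervals are exact Poisson intervals, and 3 counts were the floor. The Poisson and binomial intervals cover counting error only, since they come from the counts alone and hold no spread between samples. The reads carry no molecular identifiers in the files, so reads copied from the same molecule could not be told apart from others. Python 3.11.15 ran the other steps, with scipy 1.17.1, numpy 2.4.6, matplotlib 3.10.9 and pandas 2.3.3. Likeness of pattern was not computed, since 2 libraries of 1 group give none.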

Additional observations from a re-analysis of the deposited data

How the results depend on the processing

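The count of 8 members at 1 TPM was the same at thresholds of 0.5 and 2 TPM, with posterior mean TPM, with FPKM, without globins and in each library alone. The median level of the members, 4.66 on the log2(TPM + 0.1) scale, ranged from 4.50 to 4.88 over its 6 alternatives. Of the 12 pair ratios, 6 were above 0 in both libraries, and 2 when pairs with a gene below 1 TPM were left out, because fewer pairs remained. Of 72 recomputed pair ratios 1 changed sign: Slc25a15 over Otc was 0.15 from expected counts, which are not corrected for length. A further 27 kept their sign but were counted as moved in size, and 44 as the same. With 1 TPM added in place of 0.1, Ass1 over Cps1 was 5.73 against 7.23, and Glul over Cps1 6.20 against 7.70. Arg2 over Arg1 was then −2.56 against −4.96, and Cps1 over Alb −10.22 against −11.74. Scaling by spike-ins turned the median replicate ratio from 0.05 to −0.59. It put 5 members more than 1.5-fold apart, where 60.2% of all genes were. Nags, Otc, Slc25a15 and Slc25a13 reversed to −0.40, −0.46, −0.52 and −0.43. Ass1 changed sign too, from 0.05, where its interval included equal levels, to −0.59. Without the filter on low counts 1 member, Arg2, was more than 1.5-fold apart. The median leading transcript share, 75.0%, was 72.1% with posterior mean TPM, and the cause was not tested. Counting only complete coding sequences, an alternative chosen after the data were seen, moved Glul from position 1 to 4 and Ass1 from 2 to 1; counting over the leading complete transcript moved Glul to 2 and Ass1 to 1. Depth limits Arg2 and, less so, Cps1. No paired analysis was possible because the labels define 1 group.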

Other observations

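In adult liver Cps1 and Ass1 mark the periportal zone and Glul the pericentral zone, and genes listed for either zone were of mixed level here. Of 10 periportal genes, 7 reached 1 TPM in both libraries, led by Alb, the mitochondrial aldehyde dehydrogenase Aldh1b1 at 39.7 and 45.3 TPM and E-cadherin (Cdh1) at 10.9 and 15.5 TPM. The 3 below were Pck1, Sds and Cyp2f2. Of 14 pericentral genes, 8 did so. Beside the 52.1% of protein-coding genes that did, neither count sets its list apart, with only 10 and 14 genes. The list medians were 2.01 ± 0.262 TPM for the periportal and 1.59 ± 0.0495 TPM for the pericentral genes. Oat was the highest of the pericentral genes. Gulo, which encodes the last enzyme of vitamin C synthesis, was at 57.2 and 64.3 TPM, and Lect2 at 49.8 and 54.2 TPM. The ammonia transporter Rhbg followed at 13.9 and 13.6 TPM. Among the Wnt target genes of that list, Lgr5 (1.91 and 2.11 TPM), Tbx3 (3.33 and 5.11), Rnf43 (3.42 and 4.87) and Nkd1 (1.20 and 1.14) were above 1 TPM. Axin2 (0.39 and 0.46 TPM), Sp5 (0.44 and 0.43) and Notum (0.23 and 0.32) were below it. The cytochromes Cyp2e1 and Cyp1a2 were at or below 0.17 TPM. Whole tissue carries no position, so these values describe no zone.

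Most listed enzymes of amino acid breakdown reached 1 TPM, but 3 lay below it in both libraries, as Cps1 did. Of 12 such genes of the adult hepatocyte, 8 reached 1 TPM in both libraries, where 52.1% of protein-coding genes did. The list's median was 5.22 ± 0.343 TPM. Among the 8 were Bhmt at 42.3 and 51.8 TPM and Fah, the last enzyme of tyrosine breakdown, at 22.7 and 24.5 TPM. Tat, the first enzyme of tyrosine breakdown, was at 0.15 and 0.18 TPM, Tdo2 at 0.11 and 0.05 TPM and Sds at 0.02 and 0.08 TPM. Tat, Tdo2, Sds, Pck1, Cyp2f2, the Wnt targets, Cyp2e1, Cyp1a2 and Rhbg were named after their values were seen.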
